A study of Mus musculus with 21 samples.

Results

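Hematopoietic stem cells (HSC) and the early progenitors known as MPP4 were compared in mice homozygous for a germline mutation in Etv6, and the difference between the 2 populations, MPP4 minus HSC, is called here the mutant step. The labels give the mutation as h.P214L and the genotype of the mutant mice as ETV6 mt/mt. The step rests on 8 libraries (4 HSC and 4 MPP4) of the 21 in the series, chosen by the labelled population and genotype. Of the 11628 genes in the expression table, the 11383 with at least 1 RPKM in 3 or more of those 8 libraries were kept and the other 245 were left out. RPKM is a read level normalised to sequencing depth and to transcript length. As a reference, the same step was measured in Wild Type mice (3 HSC and 3 MPP4 libraries), and fits also used the 7 libraries of common lymphoid progenitors to estimate the spread.

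Both populations were sorted from bone marrow by flow cytometry. Both gates in the labels are Lin-Neg, cKit+ and Sca1+. The HSC gate adds FLK2-neg with CD150+ and with CD38-neg, and the MPP4 gate adds FLK2+. Within each genotype, same-numbered HSC and MPP4 libraries carry the same age and sex: mutant replicates 1, 2 and 4 and Wild Type replicates 1 and 2 were from mice of 12 weeks and both replicates numbered 3 from mice of 10 weeks, and the replicates numbered 2 were male and all others female. Replicate 4 of the mutant common lymphoid progenitors was from a mouse of 10 weeks, so that a number does not stand for 1 mouse in all 3 populations by the labels. The labels name no strain and no treatment. The mutation is germline, so all cells of a mutant mouse carry it, including the cells around the sorted ones. Values below are mean ± SD with n = 4 mutant and n = 3 Wild Type libraries, and steps are log2 differences of RPKM + 1 with their standard errors (SE).

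HSC sit at the top of the blood hierarchy, divide rarely and can rebuild all blood lineages. MPP4, also called lymphoid-primed multipotent progenitors, have gained the receptor FLT3 (FLK2) on their surface, divide more often and have begun to express genes of lymphoid and myeloid cells while losing platelet and red cell potential. ETV6 is a transcriptional repressor of the ETS family that is needed to keep HSC in adult bone marrow, and germline mutations of human ETV6 are known for low platelet counts and a predisposition to leukemia.

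The 8 mutant libraries were alike in scale, with summed RPKM of 337818 to 364217, an upper quartile of 29.8 to 30.6 RPKM and 10816 to 11236 genes at 1 RPKM or more. Pearson correlations of log2 values between replicates ran from 0.973 to 0.990, and no pair of libraries was identical. Some libraries stood apart for certain genes, and some of the results that rest on them are given with and without them. Mutant MPP4 replicate 1 listed 43 genes at 0 against 16 or fewer in the other 7 and held more megakaryocyte RNA. Mutant HSC replicate 1 had high Mpo, mutant HSC replicate 3 had high Ngp and Prg2, and globin RNA varied widely between libraries of every group. In the reference, Wild Type HSC replicate 3 listed 34 genes at 0 and had the lowest summed level of mitosis genes among the 14 HSC and MPP4 libraries.

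The mutant step was large. By limma with Benjamini-Hochberg adjustment over all genes kept, 4471 genes passed an adjusted p of 0.05 (39.3% of the genes tested), 1815 of them higher in MPP4 (15.9%) and 2656 lower (23.3%). With a further requirement of an absolute log2 difference of at least 1, 485 genes were higher (4.26%) and 715 lower (6.28%). At an unadjusted p under 0.05 there were 5299 genes (46.6%). The 4 HSC and 4 MPP4 libraries did not overlap at 4297 genes (37.7%). At the edge of the filter, 0610010B08Rik and Dach2 were just inside, with third-highest levels of 1 and 1.002 RPKM among the 8 libraries, and Nav3 and Igsf3 just outside, at 0.985 and 0.991 RPKM. These are bulk measurements, so fewer cells of a type and less RNA per cell cannot be told apart.

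Etv6 itself (mm10, chr6:134035700-134270158) was transcribed in all mutant libraries, at 111, 109, 94.2 and 107 RPKM in HSC replicates 1 to 4 and 87.1, 81.1, 83.3 and 88.8 RPKM in MPP4. The 2 groups did not overlap, and Etv6 fell by 0.30 on the log2 scale (SE 0.08, adjusted p = 0.0033 by limma), with a Wild Type step of -0.33. A gene-level value does not read the base that the mutation changes, so it does not check the genotype labels.

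The genes behind the sort followed the labels. Flt3 (chr5:147330741-147400489), the receptor used to gate MPP4, was at 13.2, 17.5, 14.4 and 10.7 RPKM in mutant HSC and at 403, 360, 384 and 385 RPKM in mutant MPP4, a step of 4.70 ± 0.11 (SE). Slamf1 (chr1:171767131-171801184), which encodes the HSC gate protein CD150, was at 28.8, 21.2, 27.5 and 29.1 RPKM in HSC and at 3.20, 1.13, 1.34 and 1.29 RPKM in MPP4, a step of -3.38. Since protein of both genes was used in the sort, these steps describe the gates. Kit, the stem cell factor receptor, fell from 312 ± 18.6 to 176 ± 13.2 RPKM. Ly6a, the gene of Sca1, was at 78.0 ± 23.7 and 60.2 ± 9.48 RPKM and did not pass the test (step -0.33, adjusted p = 0.39). Cd38 is listed as negative in the HSC gate, yet its RNA was higher in HSC, at 3.93, 3.87, 7.70 and 5.84 RPKM against 1.64, 2.59, 1.25 and 1.14 RPKM in MPP4. The labels do not name CD48, a SLAM family ligand often used in gates for mouse HSC. Whether it was used here is not given, and if it was, its step describes the gate. Cd48 went from 3.84, 2.83, 6.36 and 3.20 RPKM to 130, 141, 108 and 120 RPKM. The progenitor antigen Cd34, which neither label names, rose from 90.7 ± 6.31 to 388 ± 11.5 RPKM.

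Stem cell transcription factors were mostly lower in mutant MPP4. Of 41 kept members of a list of such factors, 30 were called lower and 2 higher, against 23.3% and 15.9% of all genes. Those 2 shares are the reference for each list below. The median step of the factors was -0.98 against -0.05 for all genes kept. Factors that passed the filter through HSC alone, such as Sox18 (0.141 to 0.259 RPKM in mutant MPP4), could only be called lower. Tcf15 and Hoxb5, described below, are among them. Gata2, a zinc finger factor that HSC need for survival, was at 152, 154, 156 and 142 RPKM in mutant HSC and at 21.2, 23.6, 18.3 and 16.2 RPKM in mutant MPP4, so that every MPP4 library was far under every HSC library (step -2.88 ± 0.19 SE, adjusted p = 2.05e-10 by limma). Tcf15, a basic helix-loop-helix factor linked to HSC quiescence, fell from 20.7 ± 4.38 to 0.341 ± 0.185 RPKM. Hoxb5, a homeobox gene used to mark long-term HSC, fell from 6.44 ± 1.21 to 0.35 ± 0.121 RPKM, and the immediate early factor Egr1 from 24.3 ± 2.47 to 4.74 ± 1.8 RPKM. The 2 members that rose were the homeobox gene Hoxa9 (13.8 ± 1.22 to 23.99 ± 1.93 RPKM) and Bcl6, a repressor of germinal centre B cells (1.34 ± 0.198 to 5.72 ± 1.26 RPKM). Other core factors moved little: Lyl1, Runx1 and Lmo2, picked after their values were seen, had steps of -0.09, -0.18 and -0.22 and did not pass the test.

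Stem cell surface and signalling genes went the same way, with 36 of 46 kept members called lower and 4 higher and a median step of -1.51. Here too, members that passed the filter through HSC alone, such as Matn4 (0 to 0.147 RPKM in mutant MPP4) and Fgd5, could only be called lower. Tek, the angiopoietin receptor TIE2, was at 26.4, 24.1, 28.2 and 29.9 RPKM in mutant HSC and at 0.453, 1.40, 1.14 and 1.22 RPKM in mutant MPP4, a step of -3.80 ± 0.16. Fgd5, an exchange factor for a small GTPase used as an HSC reporter gene, fell from 11.8 ± 1.35 to 0.414 ± 0.24 RPKM. Esam, an adhesion molecule shared by HSC and endothelium, fell from 89.7 ± 4.93 to 5.27 ± 3.78 RPKM and Aldh1a1, a retinaldehyde dehydrogenase, from 70.8 ± 11.3 to 2.86 ± 0.916 RPKM. The members that rose were Cd34, the costimulatory receptor Cd27 (68.2 ± 4.6 to 145 ± 8.2 RPKM), the lipoprotein receptor Vldlr (2.69 ± 0.551 to 13.6 ± 2.91 RPKM) and Nrp1, a semaphorin co-receptor picked after its value was seen (step 0.49).

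Among imprinted and quiescence genes, 15 kept members split into 6 lower and 5 higher, against 23.3% and 15.9% of all genes. Cell cycle inhibitors were among both. Cdkn1c, the imprinted cyclin-dependent kinase inhibitor p57 that holds HSC out of cycle, was at 21, 19.6, 17.3 and 18 RPKM in mutant HSC and 1.33, 1.29, 1.30 and 1.70 RPKM in mutant MPP4 (step -3.06 ± 0.15). Cdkn1a, which encodes the related inhibitor p21, rose from 1.09 ± 0.636 to 6.89 ± 0.809 RPKM, and Btg2, an antiproliferative gene, from 6.05 ± 2.32 to 29.6 ± 5.77 RPKM. The imprinted genes Grb10, an adaptor that restrains insulin and growth factor receptors, and Ndn, a MAGE family protein, fell by 4.16 and 3.10 on the log2 scale.

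The genes with the largest negative steps among those whose libraries did not overlap were Tgm2, Nupr1, Trim47, Aldh1a1, Grb10, Clec1a, Mmrn1, Esam, Tcf15 and Cracr2b, with steps of -5.40 to -3.98. Tgm2 (chr2:158116405-158146392), a transglutaminase that crosslinks proteins, was at 108, 116, 122 and 109 RPKM in mutant HSC and at 1.86, 1.52, 2.57 and 1.14 RPKM in mutant MPP4. Nupr1, a small stress-induced chromatin protein, fell from 65.7 ± 9.33 to 1.78 ± 1.18 RPKM and Trim47, a ubiquitin ligase, from 116 ± 9.8 to 4.02 ± 1.36 RPKM. Wild Type steps of these 10 genes ran in the same direction, from -5.55 for Tgm2 to -3.57 for Clec1a.

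**Figure D1:**
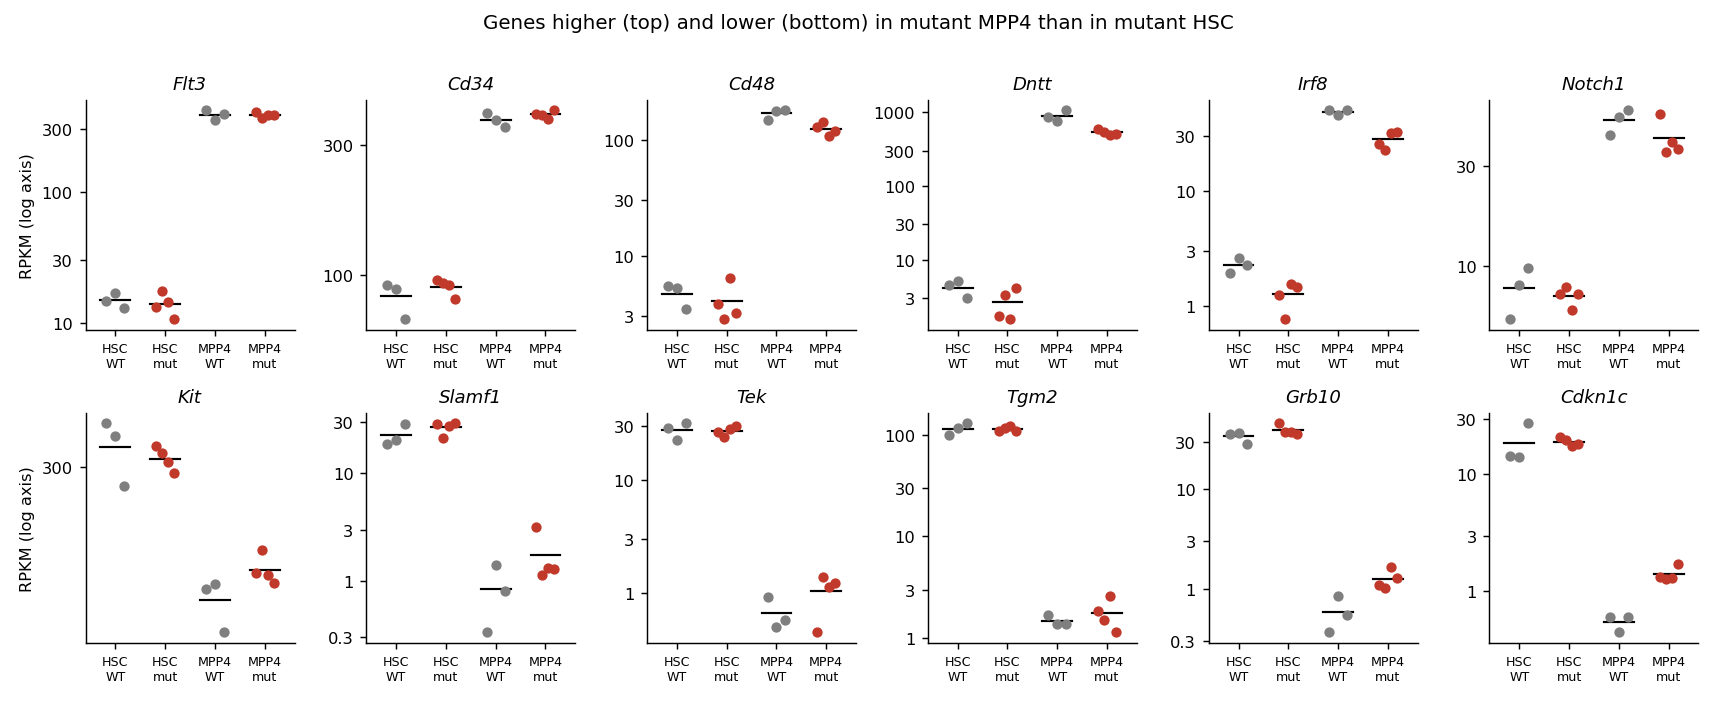
RPKM of selected genes in each HSC and MPP4 library on a log axis, with grey points for Wild Type, red points for mutant and bars for group means. In both genotypes Flt3, Cd34, Cd48, Dntt, Irf8 and Notch1 lie higher in MPP4 than in HSC. Kit, Slamf1, Tek, Tgm2, Grb10 and Cdkn1c lie lower in MPP4 than in HSC.

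Lymphoid priming genes rose in mutant MPP4. Of 43 kept members, 36 were called higher and 1 lower, with a median step of 1.17. Conversely, members that passed the filter through MPP4 alone, such as Arpp21 (0.225 to 0.419 RPKM in mutant HSC), could only be called higher. Dntt (chr19:41029275-41059525), the terminal transferase that adds bases at V(D)J junctions, had the largest positive step of all genes kept whose libraries did not overlap: it was at 1.75, 3.29, 1.56 and 4.07 RPKM in mutant HSC and at 595, 533, 482 and 498 RPKM in mutant MPP4 (step 7.22 ± 0.18, adjusted p = 1e-16 by limma). Irf8, an interferon regulatory factor of dendritic, monocytic and B cell progenitors, was at 1.23, 0.761, 1.55 and 1.46 RPKM in mutant HSC and 25.5, 22.6, 31.7 and 32.8 RPKM in mutant MPP4. Notch1, the receptor that directs T cell fate, rose from 7.23 ± 0.755 to 41.0 ± 8.34 RPKM. Il7r, the receptor chain for interleukin 7, reached a far lower level: it was at 0.587, 0.897, 1.2 and 1.52 RPKM in mutant HSC and 6.83, 5.94, 9.02 and 6.57 RPKM in mutant MPP4 (step 1.99 ± 0.22).

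The single lymphoid member that fell was Ltb, a membrane cytokine of the tumour necrosis factor family, from 57.5 ± 5.59 to 27.2 ± 4.35 RPKM. Of the listed genes, Rag1, Spib, Irf4, Ebf1 and Tcf7 were in the table but under the filter in the mutant libraries, and 6 others, Pax5 among them, were not listed in it. Genes of mature B, T and NK cells had 11 of 17 kept members called higher and 3 lower, which included Lck, a T cell kinase (5.18 ± 0.763 to 30.03 ± 2.85 RPKM), and Sdc1, a proteoglycan of plasma cells (2.32 ± 0.759 to 28.02 ± 9.32 RPKM). The summed level of those 17 genes was 201 to 270 RPKM over mutant HSC libraries and 317 to 407 RPKM over mutant MPP4. Zap70, a T cell kinase, was under the filter, and Cd3d, Cd3e, Cd3g, Cd8a and Ms4a1 were not listed in the table. Whether cells of these types were in the sort was not tested beyond these levels. Dendritic cell genes had 14 of 19 kept members called higher and 0 lower. Tlr7, an endosomal sensor of RNA strong in plasmacytoid dendritic cells, rose from 0.294 ± 0.212 to 12.8 ± 1.7 RPKM. In these lists too, members that passed the filter through MPP4 alone could only be called higher. Tlr7 and Cox6a2 (0 to 0.387 RPKM in mutant HSC) are such dendritic cell genes, and Cd6 (0.182 to 0.319 RPKM) is such a lymphocyte gene.

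Other genes among the 10 with the largest positive steps were Wfdc17 (4.06 ± 2.35 to 250 ± 65.7 RPKM), BC035044 (1.47 ± 0.345 to 63.1 ± 5.13 RPKM), Bex6 (2.1 ± 1.23 to 63.4 ± 10.5 RPKM) and Cd52, a short glycoprotein of lymphocyte surfaces (7.31 ± 3.43 to 164 ± 35 RPKM). All 4 mice showed each of these differences.

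Myeloid genes also rose, with more spread between mice. Of 35 kept members of the neutrophil granule and myeloid list, 22 were called higher and 2 lower, with a median step of 2.10. The even risers were Plac8, at 34.3, 35.8, 32.8 and 35.9 RPKM in mutant HSC and 439, 452, 528 and 579 RPKM in mutant MPP4, the inhibitory lectin Clec12a (2.88 ± 0.799 to 57.8 ± 11.8 RPKM) and Cst7, a protease inhibitor (2.24 ± 0.967 to 45.1 ± 9.27 RPKM). Mpo, the peroxidase of neutrophil granules, was at 436, 372, 323 and 320 RPKM in mutant MPP4, but at 119 RPKM in mutant HSC replicate 1 against 3.85, 2.18 and 2.4 RPKM in the other 3. Its step was 5.34, and by replicate number it ran from 1.86 to 6.67.

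Ngp and Prg2 varied most. Ngp, a neutrophil granule protein, was at 0.859, 2.4, 51.2 and 0.879 RPKM in mutant HSC and 55.6, 378, 229 and 81.8 RPKM in mutant MPP4 (step 4.83, adjusted p = 0.018 by limma). Prg2, the eosinophil major basic protein, was at 0.317, 11.4, 48.5 and 2.13 RPKM in mutant HSC and 48.8, 252, 1386 and 114 RPKM in mutant MPP4 (step 4.90, adjusted p = 0.028 by limma). Replicate 3 was the highest HSC library for both genes and the highest MPP4 library for Prg2. Both genes lost their call without HSC replicate 1, without HSC replicate 4 and without MPP4 replicate 2, with steps of 4.09 to 4.81 for Prg2 and 4.36 for Ngp, and Prg2 also without MPP4 replicate 3 (step 4.00). In Wild Type, Ngp was at 4.46, 206 and 0.425 RPKM in HSC and 93.3, 14.4 and 12.0 RPKM in MPP4, so that the 2 populations overlapped. The share of mature granulocyte RNA in these steps was not tested.

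Of the monocyte and macrophage list, 6 of 17 kept members were called higher and 0 lower, against 15.9% and 23.3% of all genes. With the replicate block, 3 were called lower. The macrophage genes C1qa, C1qb and C1qc, picked after their values were seen, had steps of 0.19, -0.01 and 0.25 and did not pass the test. Of 10 kept mast cell and basophil genes, 3 were called lower and 1 higher, near the 23.3% and 15.9% of all genes. The named ones are Slc18a2, the vesicular monoamine transporter (step -3.92), Gata2 and Mitf among the lower and the chemokine Ccl3 (step 2.68) as the higher. Of 10 kept stromal and endothelial genes, 6 were called lower and 2 higher, against 23.3% and 15.9% of all genes. The 6 that were called lower include Tie1, Sox18 and Kdr, which HSC share with endothelium.

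Megakaryocyte and platelet genes fell, with 23 of 35 kept members called lower, 2 higher and a median step of -1.69. Gng11, a G protein subunit abundant in platelets, was at 71.1, 81.9, 85.0 and 99.2 RPKM in mutant HSC and 15.6, 11, 7.83 and 7.55 RPKM in mutant MPP4. Mmrn1, the platelet granule protein multimerin, was at 132, 118, 128 and 135 RPKM in mutant HSC and 19.7, 9.61, 3.62 and 2.61 RPKM in mutant MPP4. Plek, the platelet kinase substrate pleckstrin, rose by a step of 1.59 and Slc24a3, a cation exchanger, by 0.43, a call that was lost when any 1 of 6 of the 8 libraries was left out.

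One library set the spread of this group. The 35 genes summed to 1112 RPKM in mutant MPP4 replicate 1 and to 494, 499 and 508 RPKM in replicates 2, 3 and 4, against 1731 to 1914 RPKM in mutant HSC. Replicate 1 was the highest of the 4 mutant MPP4 libraries for 28 of the 35 genes. Without it, 28 members were called lower and the median step was -2.02. The Wild Type MPP4 libraries showed a like spread, with sums of 674, 353 and 351 RPKM, again highest in replicate 1.

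Erythroid genes gave no single direction. Of 34 kept members, 11 were called lower, 1 higher and 22 neither, against 23.3% lower and 15.9% higher over all genes. Those that fell include Epor, the erythropoietin receptor, at 14.7, 11.2, 10.7 and 10.6 RPKM in mutant HSC and 3.73, 2.85, 2.37 and 2.30 RPKM in mutant MPP4, Tfr2, the second transferrin receptor (step -2.50), and Tal1, a factor shared with stem cells (step -1.49). Tfrc, the main transferrin receptor, was the member called higher (step 0.57 ± 0.16, adjusted p = 0.00649 by limma). It was at 9.08, 8.76, 10.8 and 6.71 RPKM in mutant HSC and 12.5, 17.1, 10.7 and 14.1 RPKM in mutant MPP4, so the groups overlapped and 3 of 4 mice had a positive step. Without both mutant libraries numbered 4, an alternative added after seeing the data, its step was 0.43 and was not called. The globin Hbb-bs, picked after its values were seen, ranged from 16.1 to 1696 RPKM over the 4 mutant HSC libraries and did not pass the test in spite of a step of 3.32. The summed erythroid level ran from 1479 to 5159 RPKM over mutant HSC and from 2939 to 6397 RPKM over mutant MPP4, with replicate 2 the highest in both. Without HSC replicate 2, 8 members were called higher, and with the replicate block 4 were. The part of red cell RNA in these values was not tested.

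The genes of cell division rose in all parts of the list. All 64 kept mitosis genes were called higher in mutant MPP4, with a median step of 1.13, and leaving out each mutant library in turn left 60 to 64 called. Ect2, the exchange factor that starts the cytokinetic furrow, was at 5.59, 9.47, 9.37 and 8.10 RPKM in mutant HSC and 30.2, 34.8, 21.9 and 23.6 RPKM in mutant MPP4 (step 1.65 ± 0.25). Kif23, a kinesin of the central spindle, was at 9.87, 13.1, 10.8 and 11.2 RPKM in mutant HSC and 32.9, 34.3, 29.4 and 23.0 RPKM in mutant MPP4 (step 1.33 ± 0.12, adjusted p = 1.46e-08 by limma). Cenpi, a centromere protein, was at 2.47, 4.37, 3.50 and 3.12 RPKM in mutant HSC and 10.2, 9.24, 7.03 and 8.81 RPKM in mutant MPP4. The summed level of the 64 genes was 960 to 1467 RPKM in mutant HSC. In mutant MPP4 replicates 1 to 4 it was 3024, 3017, 1986 and 1943 RPKM. Replicate 1 was the highest of these 4 libraries for 30 of the 64 genes and replicate 2 for 34.

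DNA replication genes rose less. Of 48 kept members 39 were called higher and 1 lower, with a median step of 0.52. Pole2, a subunit of polymerase epsilon, was at 12.8, 12.7, 12.3 and 11.3 RPKM in mutant HSC and 21.7, 19.5, 21 and 17.1 RPKM in mutant MPP4 (step 0.65 ± 0.11). Rfc2, of the clamp loader, rose from 148 ± 12.9 to 214 ± 9.24 RPKM and Dut, which removes dUTP from the nucleotide pool, from 36.1 ± 6.38 to 55.2 ± 2 RPKM. The member called lower was Chaf1b, of the chromatin assembly factor, whose step of -0.27 lost its call when any 1 of 6 of the 8 libraries was left out.

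Of 27 kept genes of G1 control, 11 were called higher, a share over the 15.9% of all genes, and 5 lower, a share under the 23.3% of all genes. Cdk6, the kinase partner of D cyclins that controls exit of stem cells from quiescence, was at 39.2, 45.2, 25.7 and 29.0 RPKM in mutant HSC and 124, 84.0, 88.2 and 79.9 RPKM in mutant MPP4 (step 1.42 ± 0.18). Cdk4 rose from 320 ± 6.51 to 448 ± 20.1 RPKM. Mycn, a MYC family factor, was at 124, 128, 130 and 117 RPKM in mutant HSC and 22.1, 25.7, 25.9 and 28.4 RPKM in mutant MPP4 (step -2.25), and the D cyclin Ccnd2 fell from 91.7 ± 5.2 to 53.8 ± 7.88 RPKM.

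Mitosis genes are known to share a promoter element, the cell cycle genes homology region TTTGAA, which lies near the transcription start and often a short way from CCAAT boxes. Genes of DNA replication more often carry E2F sites. The promoters of 4 genes named above are shown because 3 of them are the mitosis genes with the smallest p and the fourth is a replication gene with an E2F match. They are from RefSeq, build GRCm38.p6, and run from 250 bases before to 50 bases after the transcription start, 5′ to 3′ on the strand of the gene. Capitals mark TTTGAA and CCAAT on either strand in the mitosis genes and the E2F match in Pole2. Kif23 lies on the minus strand (chr9:61946750-61947049), as do Ect2 (chr3:27153829-27154128, the upstream of 2 listed starts) and Pole2 (chr12:69228141-69228440), and Cenpi on the plus strand (chrX:134307834-134308133).
Kif23: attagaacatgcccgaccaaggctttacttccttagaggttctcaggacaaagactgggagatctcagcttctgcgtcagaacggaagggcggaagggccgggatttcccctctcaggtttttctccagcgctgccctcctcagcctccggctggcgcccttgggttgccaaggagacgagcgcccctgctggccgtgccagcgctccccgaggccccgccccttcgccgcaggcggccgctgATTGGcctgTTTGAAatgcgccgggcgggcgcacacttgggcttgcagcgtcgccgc
Ect2: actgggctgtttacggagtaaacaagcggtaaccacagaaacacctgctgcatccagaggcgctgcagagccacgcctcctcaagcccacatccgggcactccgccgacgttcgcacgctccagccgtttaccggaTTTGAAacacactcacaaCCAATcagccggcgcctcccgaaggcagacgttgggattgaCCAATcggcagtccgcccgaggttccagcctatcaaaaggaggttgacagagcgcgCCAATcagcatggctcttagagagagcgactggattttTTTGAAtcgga
Cenpi: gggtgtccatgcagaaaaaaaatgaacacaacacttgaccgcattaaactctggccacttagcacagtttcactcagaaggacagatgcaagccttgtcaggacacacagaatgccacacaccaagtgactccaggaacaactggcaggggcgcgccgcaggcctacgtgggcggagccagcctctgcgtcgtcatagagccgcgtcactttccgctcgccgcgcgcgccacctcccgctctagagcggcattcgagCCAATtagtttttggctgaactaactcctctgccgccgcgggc
Pole2: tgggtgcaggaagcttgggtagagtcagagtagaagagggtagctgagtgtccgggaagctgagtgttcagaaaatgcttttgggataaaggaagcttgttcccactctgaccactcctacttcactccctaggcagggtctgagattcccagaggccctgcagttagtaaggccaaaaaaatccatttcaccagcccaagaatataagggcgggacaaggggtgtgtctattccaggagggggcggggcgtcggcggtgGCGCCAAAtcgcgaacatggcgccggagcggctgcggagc

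Kif23 held 1 TTTGAA, 2 bases after the start, and 1 CCAAT box read on the opposite strand as ATTGG. Ect2 held 2 TTTGAA and 3 CCAAT boxes. Cenpi held 1 CCAAT box and no TTTGAA, which says only that these letters were not in this window. Pole2 held the E2F letters TTTGGCGC on the opposite strand.

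The letters were then counted on both strands in promoters of the same length, over any listed start of a gene. Of the genes kept, 9204 of 11383 had a promoter. TTTGAA was present at 37 of 54 mitosis genes with a promoter (68.5%), at 5 of 40 replication genes (12.5%), at 6 of 33 lymphoid priming genes (18.2%), at 9 of 36 stem cell surface genes (25%), at 4 of 26 megakaryocyte genes (15.4%), at 14.2% of genes kept and at 20.2% of all 27025 genes with promoters. In mitosis genes the median match lay 15 bases before the start and 41 of 53 matches (77.4%) lay between 100 bases before and 50 after it, against 37% of the 1565 matches in genes kept. A match was counted for each listed start whose promoter held it, so 1 site can count more than once. CCAAT was present at 40 of 54 mitosis genes (74.1%), 26 of 40 replication genes (65%), 43.4% of genes kept and 41.1% of all genes. The E2F letters TTTCGCGC or TTTGGCGC were present at 12 of 40 replication genes (30%), 3 of 54 mitosis genes (5.56%), 1.93% of genes kept and 0.929% of all genes. Among genes kept, 22.4% of the 1309 with TTTGAA were called higher in the mutant step, against 14.9% of the 7895 without it. With the mitosis and replication lists set aside the shares were 20% of 1267 and 14.5% of 7843.

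ETV6 belongs to the ETS family, whose members bind around GGAA. The 8 letters CCGGAAGT, searched on both strands, were present at 9.72% of genes kept and 4.31% of all genes with promoters. Of the genes kept, they were present at 7.88% of those called higher in the mutant step, at 6.36% of those called lower and at 11.5% of those not called. They were found at 0 of 36 stem cell surface genes and 0 of 26 megakaryocyte genes with a promoter, at 1 of 33 lymphoid priming genes (3.03%), at 8 of 54 mitosis genes (14.8%) and at 8 of 40 DNA replication genes (20%). A match to letters is no evidence of binding, and its absence says nothing about the factor.

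**Figure D2:**
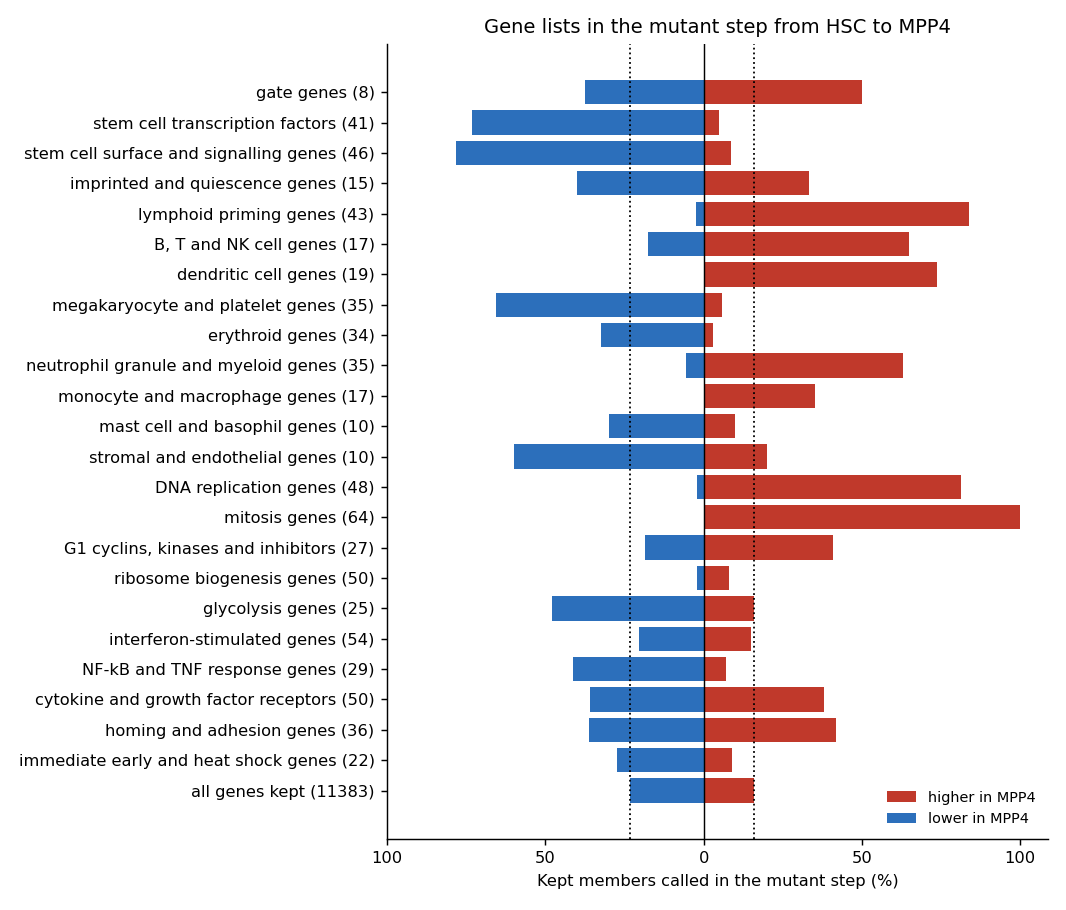
Percent of kept members of each gene list called higher (red) or lower (blue) in the mutant step by limma at an adjusted p of 0.05; dotted lines mark the shares over all genes kept, 15.9% and 23.3%. Mitosis genes were all called higher, and stem cell surface genes had the largest share called lower.

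Ribosome biogenesis genes stood near no change, with 4 of 50 kept members called higher, 1 lower and a median step of 0.05; the 4 included Nhp2 and Dkc1, of the pseudouridylation complex (steps 0.35 and 0.29), and Dkc1 lost its call without MPP4 replicate 1. Glycolysis genes had 12 of 25 kept members called lower and 4 higher. Among them were the glucose transporter Slc2a3, at 47.8, 42.1, 51.7 and 42.2 RPKM in mutant HSC and 23.4, 17.5, 19.5 and 18.2 RPKM in mutant MPP4, the enolase Eno2 (3.77 ± 0.342 to 0.442 ± 0.193 RPKM) and the phosphofructokinase Pfkp (32.2 ± 1.59 to 17.6 ± 1.25 RPKM). Hk3, a hexokinase of myeloid cells, rose from 23.2 ± 4.51 to 49.5 ± 4.31 RPKM and Pgam1 from 62.0 ± 2.23 to 100.3 ± 7.44 RPKM, so members of 1 pathway moved in both directions.

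Of 54 kept interferon-stimulated genes, 8 were called higher and 11 lower, shares near those over all genes. Ifi27l2a was at 1.88, 1.32, 2.32 and 2.69 RPKM in mutant HSC and 17.7, 19.8, 21.6 and 15.3 RPKM in mutant MPP4 (step 2.69), and the GTPase Gbp7 fell from 36.3 ± 4.82 to 20.3 ± 3.18 RPKM. With the replicate block 17 members were called lower, and the number called higher was 4 without HSC replicate 2 and 5 without HSC replicate 1 or without MPP4 replicate 1, 3 or 4. Of 29 kept NF-kB and TNF response genes, 12 were called lower and 2 higher. Tnfaip2 was at 34.0, 26.0, 21.7 and 27.4 RPKM in mutant HSC and 4.72, 6.28, 4.24 and 5.87 RPKM in mutant MPP4, and Traf1, an adaptor of TNF receptors, fell from 8.53 ± 1.19 to 2.3 ± 0.404 RPKM. Rel, the NF-kB subunit c-Rel, rose from 7.99 ± 1.28 to 14.3 ± 1.19 RPKM. Immediate early and heat shock genes had 6 of 22 kept members called lower and 2 higher, near the 23.3% of all genes called lower and under the 15.9% called higher; 3 were called lower without HSC replicate 4 or without MPP4 replicate 4, and with the replicate block 5 were called higher.

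Receptors and adhesion molecules moved in both directions. Of 50 kept cytokine and growth factor receptors, 19 were called higher and 18 lower, against 15.9% and 23.3% of all genes. Those that rose most clearly were Flt3, Il1r1, the interleukin 1 receptor, at 3.96, 2.93, 3.84 and 3.56 RPKM in mutant HSC and 36.2, 43.0, 29.3 and 40.5 RPKM in mutant MPP4, and Notch1. Those that fell include Tek and Tgfbr3, the betaglycan co-receptor of TGF-beta (29.4 ± 6.01 to 1.77 ± 0.986 RPKM). Of 36 kept homing and adhesion genes, 15 were called higher and 13 lower, against the same shares of all genes. Itgal, the alpha chain of the leukocyte integrin LFA-1, was at 2.31, 1.79, 2.89 and 2.55 RPKM in mutant HSC and 38.2, 38.2, 40.1 and 35.4 RPKM in mutant MPP4. The chemokine receptor Ccr7 rose from 0.307 ± 0.323 to 10.99 ± 1.99 RPKM, while the junctional molecule Jam3 fell from 12.9 ± 2.8 to 1.37 ± 0.732 RPKM and the fibronectin receptor chain Itga5 from 29.8 ± 3.76 to 10.6 ± 1.19 RPKM.

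The Wild Type step served as the reference for whether the mutant step was shortened or lengthened. By the same limma fit the Wild Type step had 4480 genes called (39.4%), 1810 higher (15.9%) and 2670 lower (23.5%). With an absolute log2 difference of at least 1, 547 were higher (4.81%) and 844 lower (7.41%). Of the genes called in the mutant step, 1481 were called higher in both (81.6% of the mutant and 81.8% of the Wild Type calls) and 2132 lower in both (80.3% and 79.9%), and 0 were called in opposite directions. Over the 11383 genes the 2 steps had a Pearson r of 0.940, given as a description, since genes are not independent. A further 334 genes were called higher and 524 lower in the mutant step alone, which by itself does not show that the steps differ at these genes.

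**Figure D3:**
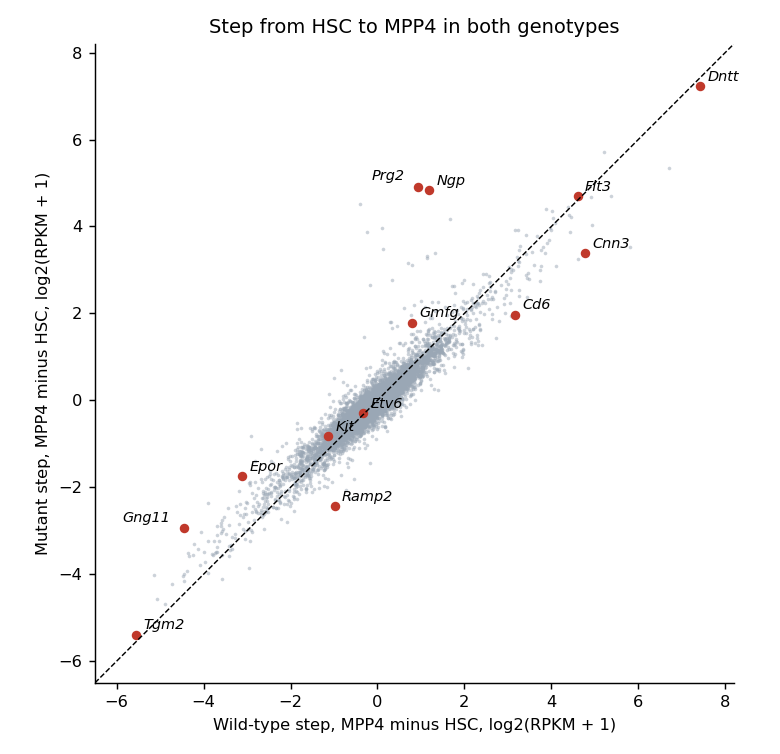
Step from HSC to MPP4 in Wild Type mice (x axis, log2 difference of RPKM + 1) against that in mutant mice (y axis) for the 11383 genes kept, with the line of equality dashed. The genes lie along the line, with a Pearson r of 0.940.

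The difference between the steps was tested directly. By limma with Benjamini-Hochberg adjustment 0 genes passed (0.0% of those tested), with 428 at an unadjusted p under 0.05 (3.76%) and a smallest adjusted p of 0.0814. The median SE of the difference was 0.191 on the log2 scale, against 0.125 for the mutant step. With a term for each mouse (the replicate block), which compares HSC and MPP4 of the same number, 5 genes passed (0.0439%): Gmfg, Ramp2, Cnn3, Epor and Slc22a3. The genes described below were chosen after their values were seen, from these 5 and from the 10 with the smallest p in the unblocked fit.

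Cnn3 (chr3:121426541-121458205), which encodes the actin-binding calponin 3, was at 4.27, 2.98, 2.05 and 1.94 RPKM in mutant HSC and 2.15, 2.04 and 2.76 RPKM in Wild Type HSC. In MPP4 it was at 41.3, 46.5, 32.5 and 32.5 RPKM in the mutant and 75.3, 97.4 and 99.2 RPKM in Wild Type. The genotypes overlapped in HSC and not in MPP4, and the mutant step was shorter by 1.40 on the log2 scale (SE 0.23, adjusted p = 0.0814 without and 0.0292 with the replicate block, by limma). Cd6, a receptor of T cells, was at 3.29, 3.83, 4.32 and 4.07 RPKM in mutant MPP4 and 8.24, 8.19 and 12.7 RPKM in Wild Type MPP4, and at most 0.319 RPKM in all HSC libraries (difference of steps -1.19, adjusted p = 0.0814 without and 0.258 with the block, by limma). Cmah, a hydroxylase of sialic acid, had steps of 2.01 and 3.22.

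Among genes that fall in the step, Gng11 was at 2.93, 3.55 and 2.19 RPKM in Wild Type MPP4 against 7.55 or more in mutant MPP4 (steps -2.93 and -4.45, adjusted p = 0.192 by limma). Gng11 belongs to the list in which mutant MPP4 replicate 1 stood high. Epor was at 0.692, 1.54 and 0.263 RPKM in Wild Type MPP4 against 2.30 or more in mutant MPP4 (difference 1.36, adjusted p = 1 without and 0.0302 with the block, by limma).

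Gmfg, an actin regulator of blood cells, was at 30.5, 29.3, 32.1 and 43.7 RPKM in mutant HSC and 80.3, 70.3 and 108 RPKM in Wild Type HSC, with overlapping MPP4 values of 104, 112, 122 and 134 RPKM and 157, 129 and 162 RPKM. Its mutant step was longer, 1.78 against 0.80 (adjusted p = 0.263 without and 0.0292 with the block, by limma). Ramp2, which pairs with the calcitonin receptor-like receptor, was at 8.04, 7.25, 10.1 and 12.0 RPKM in mutant HSC and 1.90, 3.12 and 6.42 RPKM in Wild Type HSC, and its mutant step was also longer, -2.43 against -0.99 (adjusted p = 0.708 without and 0.0292 with the block, by limma). Slc22a3, an organic cation transporter, went from 34.4 ± 7.54 to 43.7 ± 5.61 RPKM in the mutant and from 49.3 ± 15.4 to 29.1 ± 5.31 RPKM in Wild Type, steps of 0.35 and -0.71 (adjusted p of the difference = 0.532 without and 0.0487 with the block, by limma). The genotypes overlapped in HSC for this gene and did not in MPP4. Of the 10 genes with the smallest p in the unblocked fit, the mutant step was the smaller in 9, with Gmfg the exception. The 4 mutant and 3 Wild Type libraries did not overlap for 9 of the 10 in MPP4 and for 2 of the 10 in HSC. Over all genes kept, genotypes did not overlap in MPP4 at 1152 (10.1%) and in HSC at 592 (5.2%). In the direction of the weighted mean of both steps, the mutant step was the smaller at 6857 of all genes kept (60.2%). The 10 genes were chosen by the p of the difference, so their counts follow in part from that choice. They are no support for a difference of steps.

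**Figure D4:**
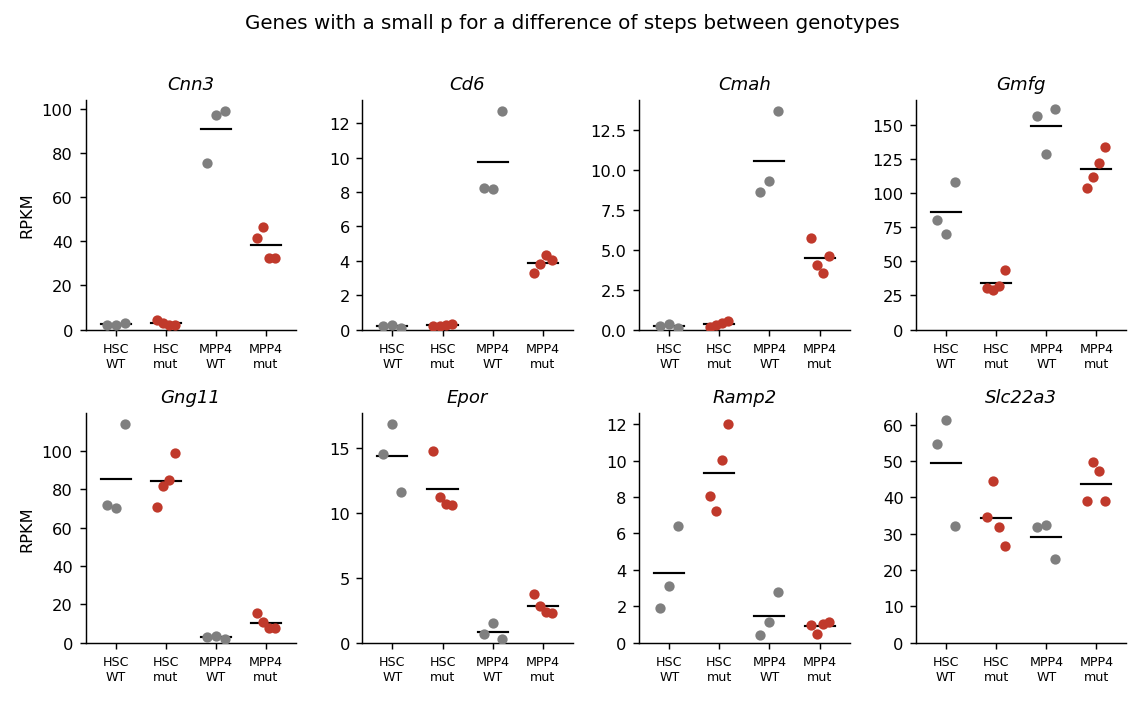
RPKM of 8 genes with a small p for the difference of steps, in each HSC and MPP4 library, with Wild Type in grey, mutant in red and bars at group means on linear axes from 0. The genotypes do not overlap in MPP4 for Cnn3, Cd6, Cmah, Gng11, Epor and Slc22a3, nor in HSC for Gmfg and Ramp2.

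Over many genes the mutant step was a little the smaller. The measure used genes called in the pooled step of both genotypes, weighted by mice (6075 genes, 53.4%), so that neither genotype chose them. Their median step in the pooled direction was 0.47 in the mutant and 0.53 in Wild Type, and 3967 (65.3%) had the smaller step in the mutant. For the 1280 genes with a pooled step of at least 1 the medians were 1.41 and 1.56, and for the 323 with at least 2 they were 2.50 and 2.73. By replicate number, the median step over the 6075 genes was 0.515, 0.459, 0.484 and 0.482 in the 4 mutant mice and 0.504, 0.497 and 0.637 in the 3 Wild Type mice. The mutant values lie among or under the Wild Type ones, and Wild Type replicate 3 is above all others; the SD between mice within a genotype was 0.0531. Without Wild Type HSC replicate 3 the median difference went from -0.07 to -0.03 and the share smaller in the mutant from 65.3% to 56.8%.

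The same libraries were placed on the first principal component of the 14 HSC and MPP4 libraries, which held 72.8% of the variance and separated the populations. Mutant MPP4 stood at 35.09 ± 0.98 (34.12 to 36.46) and Wild Type MPP4 at 43.58 ± 1.64 (42.41 to 45.46), so that every mutant library lay nearer to HSC than every Wild Type one. The difference of -8.48 had a two-sided exact permutation p of 0.0571, or 0.114 after adjustment over the 2 populations. With the smaller tail doubled, as here, 0.0571 is the smallest p that this exact permutation test can give for 4 against 3. For HSC the positions were -39.59 ± 2.55 and -37.58 ± 8.57 (exact permutation p = 0.686), and they overlapped. The distance from HSC to MPP4 by replicate number was 75.7, 72.8, 73.1 and 77.1 in mutant mice and 76.7, 74.1 and 92.8 in Wild Type mice, so these overlapped save for Wild Type replicate 3.

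**Figure D5:**
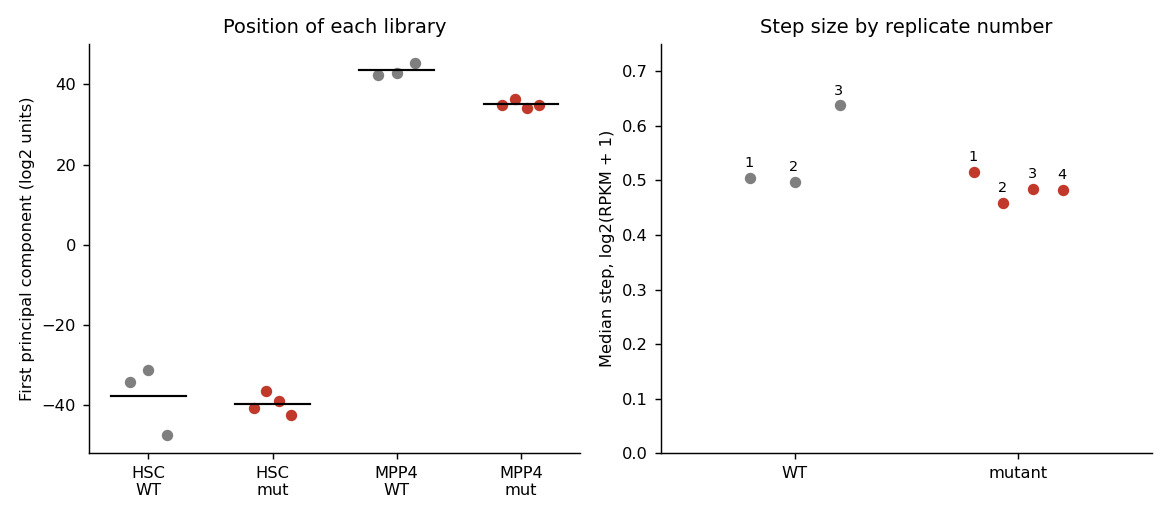
Position of each HSC and MPP4 library on the first principal component (log2 units) and the median step by replicate number (log2), with Wild Type in grey and mutant in red. Mutant MPP4 libraries lie at 34.12 to 36.46 and Wild Type ones at 42.41 to 45.46.

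The lists differed in how the 2 steps compared, and since no gene passed the test of the difference without the replicate block, medians are given as descriptions beside the median of 0.01 over all genes kept. Of the megakaryocyte genes, 31 of 35 had a positive difference (a smaller fall in the mutant), with a median of 0.49; without mutant MPP4 replicate 1 this was 20 of 35 and 0.10, and leaving out each other library gave medians of 0.33 to 0.87. Of the stem cell factors 33 of 41 were positive, with a median of 0.26; without Wild Type HSC replicate 3 this was 27 of 41 and 0.10. Of the erythroid genes 32 of 34 were positive, with a median of 0.81. The summed erythroid level was 1593, 6614 and 1514 RPKM in Wild Type HSC and 3816, 772 and 1952 RPKM in Wild Type MPP4, so replicate 2 had the highest HSC and the lowest MPP4 level. Without Wild Type HSC replicate 2 the median was 0.32 with 28 of 34 positive, and without Wild Type MPP4 replicate 3 it was 0.46 with 28 of 34 positive; without Wild Type MPP4 replicate 2 it was 0.77 with 32 of 34. Of the mitosis genes 58 of 64 had a negative difference (a smaller rise in the mutant), with a median of -0.15. This turned without Wild Type HSC replicate 3, when 54 of 64 were positive with a median of 0.19; that library summed to 662 RPKM of mitosis genes against 1463 and 1250 RPKM in the other Wild Type HSC libraries. Leaving out each other library gave medians of -0.38 to -0.03. Lymphoid priming genes had 25 of 43 negative with a median of -0.03. At an unadjusted p under 0.05 for the difference by limma there were 8 of the 43, against 3.76% of all genes kept. The summed level of this list was 2784 to 2865 RPKM in mutant MPP4 and 3281 to 3767 RPKM in Wild Type MPP4, and overlapped in HSC. Within these sums, Dntt alone was at 527 ± 50.3 RPKM in mutant and 889 ± 149 RPKM in Wild Type MPP4.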

How the data were processed

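RNA of sorted bone marrow cells was made into libraries with the SMART-seq v4 kit and the NexteraXT kit, from polyA RNA, per the labels' protocols. The submitters' processing notes name STAR and the build mm10. For the counting tool and the annotation, no name is given in the sources used here. The values analysed are RPKM per gene and library as the authors deposited them. Read counts could not be recovered from them, so the depth per library is unknown and its part in the error of low values was not measured. Gene symbols that a spreadsheet had turned into dates (16) were restored from their Entrez IDs, of which 11619 matched RefSeq. All value columns were matched to a labelled sample.

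Values were set on the scale log2(RPKM + 1), which understates the change of low genes. Genes with at least 1 RPKM in 3 or more of the 8 mutant HSC and MPP4 libraries were kept. Of these, 210 passed through HSC alone and 103 through MPP4 alone, and such genes could be called in only 1 direction. Members of several gene lists are among them, and their number per list is not given. limma 3.58.1 in R 4.3.3 was fitted to 21 libraries in 6 group means with a variance trend (15 residual degrees of freedom), with contrasts for the mutant step, the Wild Type step, their difference and a pooled step, each with Benjamini-Hochberg adjustment over all genes kept and a threshold of 0.05. The fit was tested on simulated data. Single values per library were compared with a two-sided exact permutation test. Alternatives changed the pseudocount, the filter, the scaling, the libraries in the fit, the variance model and covariates, and left out each library in turn.

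Same-numbered HSC and MPP4 libraries of a genotype share age and sex in the labels, and the series describes 3 Wild Type and 4 mutant mice. Deviations of same-numbered libraries from their group means correlated at 0.329, 0.184, 0.207 and 0.122 over genes in the mutant and at 0.099, 0.146 and 0.338 in Wild Type, against -0.294 to 0.181 for other pairings of mutant libraries. The pair numbered 4 is the weakest in the mutant. Mutant HSC replicate 4 correlated at 0.127 with MPP4 replicate 3, of another age, and at -0.1 with MPP4 replicate 1, of the same age and sex. On these grounds same-numbered HSC and MPP4 libraries were taken to come from 1 mouse, which the labels do not state; replicate 4 of the mutant common lymphoid progenitors has another age than replicate 4 of HSC and MPP4 and shares no block with them; blocked values are given where they change a call. In the unblocked limma fit, p-values rest on the spread between libraries within the 6 groups and do not use the pairing. With the replicate block, they rest on the spread of the step from HSC to MPP4 between mice.

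Genes named in the text are Etv6 and the gate genes, the 10 genes with the largest step in each direction among genes called whose libraries do not overlap, the 3 members of each gene list with the smallest p in each direction, and genes picked after their values were seen, which are marked as such. Some genes that this rule selects are not reported here. The part of the series, its members and the gene lists were chosen with earlier results of these data known. Promoters and gene positions are from RefSeq (GRCm38.p6, 32851 promoters of 27025 genes).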

Additional observations from a re-analysis of the deposited data

Results flagged for a closer look

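In 254 groups of 4 mutant libraries (the named genes in HSC and in MPP4, and both positions on the first principal component), 10 had 1 library set apart from the other 3 by Dixon's criterion; chance flags about 1 in 20 groups. In mutant HSC these were Mpo at 119.1 RPKM and Epor at 14.72 RPKM in replicate 1, Ngp at 51.16 RPKM in replicate 3 and Irgm2 at 42.77 RPKM in replicate 4. In mutant MPP4 they were Slamf1 at 3.196 RPKM in replicate 1, Cracr2b at 0.63 RPKM in replicate 2, Prg2 at 1386 RPKM and Taf1d at 13.94 RPKM in replicate 3, and Cdkn1c at 1.701 RPKM and Traf1 at 1.695 RPKM in replicate 4. Their cause was not tested.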

How the results depend on the processing

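The number of genes called in the mutant step stayed within 1.5 times of 4471 under every alternative run, from 3357 with a filter of a mean of at least 5 RPKM, which tests fewer genes, to 4951 with the replicate block; leaving out each mutant library gave 3974 to 4195, and leaving out both mutant libraries numbered 4, an alternative chosen after seeing the data, gave 3609. The difference of steps had 0 genes called in the main analysis, 5 with the replicate block and 4 with library weights; leaving out each library gave 0 to 1 (1 without mutant HSC replicate 4 and 1 without mutant MPP4 replicate 2), and the other alternatives gave 0. Under the block Slc24a3 also lost its call in the mutant step (0.43) and Slc22a3 gained one (0.35), and 6 counts over gene lists moved by over 1.5 times: those given in the report, mast cell genes higher (1 to 2) and ribosome biogenesis genes lower (1 to 2); no other call changed among the 126 genes of the naming rule and the difference of steps. The cause of these shifts was not tested. Quantile normalization split the calls into 2168 higher and 2337 lower and median-ratio scaling into 2065 and 2360, against 1815 and 2656. The median difference in step size ran from -0.104 without Wild Type HSC replicate 1 to -0.0305 without Wild Type HSC replicate 3, and the MPP4 position difference from -9.44 with a pseudocount of 0.5 to -6.66 with quantile normalization. Of these 126 genes, 123 were called in the mutant step, none reversed under any alternative, and 7 lost their call under at least 1: Chaf1b, Dkc1, Gapdh, Ngp, Prg2, Slc24a3 and Tfrc. Other genes picked after their values were seen, such as Hbb-bs and Lyl1, were not run one by one through the alternatives. Depth is unknown, so what it limits could not be stated.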
